A study of Homo sapiens with 12 samples.

Results

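The collagen genes were taken as every protein-coding gene whose symbol reads COL, a number, A and a number, matched by Ensembl identifier to the deposited count table. The rule gave 44 genes out of 58302 in the table, of which 19817 were protein-coding. By the structure of their proteins they comprised 11 fibrillar genes, 9 network genes, 10 FACIT genes (fibril-associated collagens with interrupted triple helices) and 14 others, namely the beaded-filament, anchoring-fibril, transmembrane and multiplexin collagens with COL26A1 and COL28A1. RPKM, the read count scaled to gene length and library size, is the unit used here for levels because it allows genes of different length to be compared. At a mean of at least 1 RPKM in at least 1 group, 19 of the 44 genes were expressed: 5 fibrillar, 6 network, 2 FACIT and 6 other genes.

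Total RNA was sequenced from a mesothelioma line in 4 groups of 3 libraries. NCI-H226_CL3 cells, called resistant to GNE-7883, were incubated with GNE-7883 or with the vehicle DMSO, and so were NCI-H226 cells, called sensitive. The labels call the tissue lung epithelial and the cell type mesothelioma, and NCI-H226 is described as NF2 null. The resistant line was selected from it with a TEAD inhibitor raised stepwise between 0.25 and 3 µM; a single resistant line was profiled, and the dose and duration of the final incubation were not stated in the labels. GNE-7883 is a small molecule that blocks TEAD transcription factors, through which YAP and TAZ act, and NF2 encodes merlin, an upstream restraint on YAP and TAZ.

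Collagens are secreted or membrane-bound proteins built from chains that wind into a triple helix, and most types need particular partner chains. Fibrillar collagens assemble into the banded fibrils of connective tissue, network collagens such as type IV form the sheet of basement membranes, FACITs coat fibrils, and the others anchor membranes, link filaments to cells or span the plasma membrane. Mesothelial cells rest on a basement membrane and also secrete interstitial matrix.

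Total counts ran from 31878934 to 46962645 per library, and all 44 collagen genes together took between 0.363% and 0.574% of them. All 11 mesothelial markers examined, such as MSLN, WT1 and CALB2, averaged at least 1 RPKM in every group. Their summed level was 4551 to 5141 CPM (counts scaled to library size) in resistant GNE-7883, 4026 to 4721 in resistant DMSO, 7103 to 7321 in sensitive GNE-7883 and 9068 to 10640 in sensitive DMSO libraries. KRT8 and KRT18 make up much of that sum and fell with GNE-7883 in sensitive cells. They measured 1244 ± 88.6 and 1793 ± 82.4 CPM with it, against 2604 ± 348 and 3939 ± 419 in DMSO (SD, n = 3). Over the list 7 of the 11 markers rose and 4 fell there, against 29.8% and 28.4% of all genes. In DMSO 9 of the 11 were lower and 1 higher in resistant than in sensitive cells, against 24.4% and 24.2%. In GNE-7883 7 were lower and 1 higher, against 31.1% and 30.7%. Of 8 fibroblast and stromal markers, 3, 3, 4 and 3 reached 1 RPKM in resistant GNE-7883, resistant DMSO, sensitive GNE-7883 and sensitive DMSO libraries. The 8 summed to 250.2 to 281, 246 to 254, 276 to 278 and 334 to 362 CPM in the same order. PDGFRA rose with GNE-7883 in sensitive cells (3.13 ± 0.14 log2 units, SE) while PDGFRB fell (-0.89 ± 0.068). Of the 6 markers tested on this list, 3 rose and 2 fell there, against 29.8% and 28.4% of all genes. LUM was at a count of 0 in the resistant DMSO libraries. The 5 blood markers summed to at most 0.167 CPM and the 7 alveolar and airway markers to at most 2.54 CPM, while 1 of 5 endothelial markers, KDR, reached 1 RPKM. The 5 endothelial markers summed to 32.1 to 35.3 CPM in resistant GNE-7883, 22.8 to 24.2 in resistant DMSO, 180.3 to 196 in sensitive GNE-7883 and 49.3 to 63.7 in sensitive DMSO libraries. The part of these marker differences in the collagen results was not tested, and in bulk RNA fewer cells of a type and less RNA per cell cannot be told apart. Sensitive DMSO replicate 2 stood apart from its group (chi-square per degree of freedom 37.6 and 42.9 against the other replicates, and at most 10.7 between any other replicates), with short transcripts raised relative to long ones. The median deviation of the collagens described by library was -0.02 log2 units in it, but 9 of 19 lay below both other replicates. COL12A1 measured 245 CPM in it against 395 and 450 in the other replicates, and COL6A1 911 against 778 and 808. The collagens described by library had a median length of 6727 bases, against 3028 over all genes tested. Calls of collagens that change without this library are given with both values.

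Collagen expression was dominated by a few genes. COL4A2, COL4A1, COL6A1 and COL1A1 together made up between 70.8% and 78.4% of the summed collagen RPKM in every library. The 44 genes summed to 692 ± 38.5 RPKM in resistant GNE-7883, 598 ± 63.8 in resistant DMSO, 928 ± 52.4 in sensitive GNE-7883 and 848 ± 18.4 in sensitive DMSO cells (SD, n = 3 each), and every resistant library lay below every sensitive one. In GNE-7883 the class of other collagens summed to 177.5 ± 14.6 RPKM in resistant and 428.3 ± 30.33 in sensitive cells. The network class went the other way there, at 366.9 ± 17.35 and 346.9 ± 13.97. So did the fibrillar class, at 131.3 ± 7.814 and 119.5 ± 7.956. In DMSO both were lower in resistant cells, at 343.5 ± 31.77 against 400.4 ± 22.24 and 101.3 ± 11.62 against 145.5 ± 4.77. The network class held the largest share in resistant cells, at 53.0% ± 0.865 with GNE-7883 and 57.5% ± 0.817 with DMSO. In sensitive cells its share was 37.4% ± 0.659 with GNE-7883 and 47.2% ± 2.47 with DMSO, and with GNE-7883 the class of other collagens was larger, at 46.1% ± 0.912. COL6A1 alone made up 35.6% ± 0.526 of the total in sensitive GNE-7883 cells. These sums describe the libraries and were not tested.

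**Figure D1:**
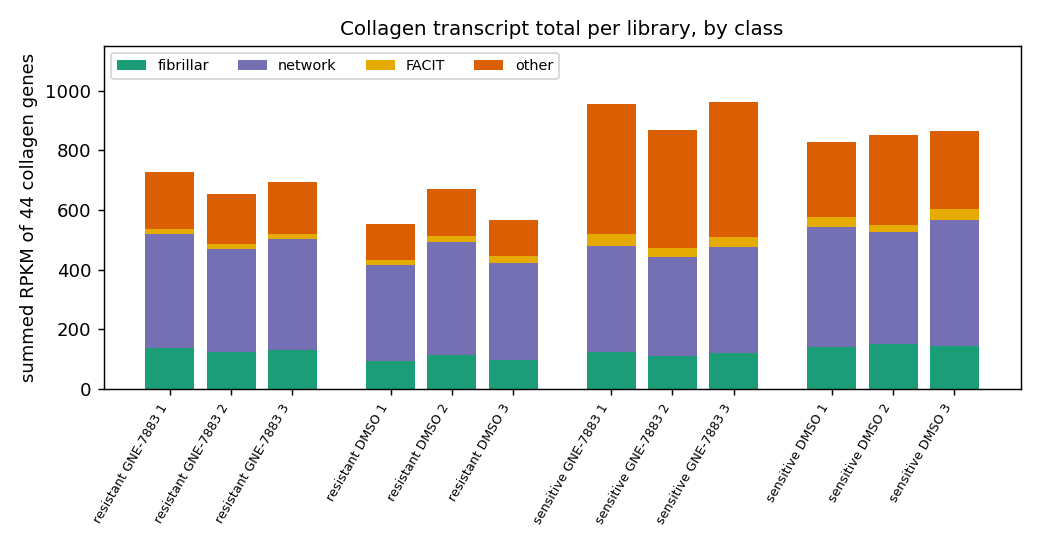
Summed RPKM of the 44 collagen genes in each of the 12 libraries (vertical axis), stacked by class, with the libraries of each group side by side. The 6 resistant libraries end between 554 and 729 RPKM and the 6 sensitive ones between 829 and 962, and the class of other collagens is thickest in the 3 sensitive GNE-7883 libraries.

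**Figure D2:**
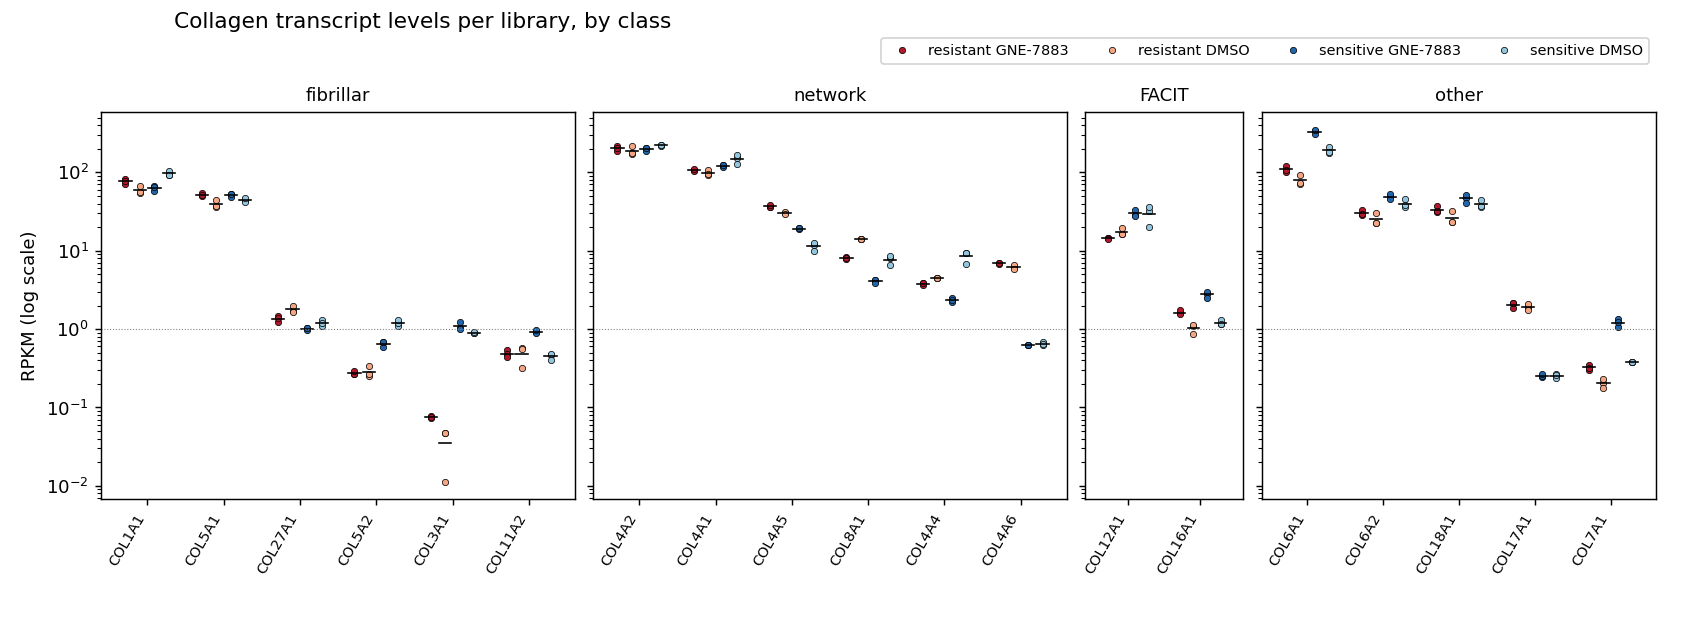
RPKM on a log axis for the 19 collagen genes that averaged at least 5 RPKM or 5 CPM in a group, by class; each point is a library, each bar the mean of 3, and the dotted line is 1 RPKM. The resistant and sensitive libraries lie far apart for COL3A1, COL5A2, COL4A6 and COL17A1 and close together for COL4A2 and COL5A1.

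The number expressed was 16 in resistant GNE-7883, 16 in resistant DMSO, 15 in sensitive GNE-7883 and 14 in sensitive DMSO cells. COL8A2 came nearest to the threshold from below, with 0.957 ± 0.0478 RPKM in resistant GNE-7883 cells, and COL27A1 was nearest above it in sensitive GNE-7883 cells, with 1.01 ± 0.0423 RPKM (SD, n = 3). Counts were too low for a test in 15 genes, each with at most 33 counts over all 12 libraries and at most 0.0265 RPKM in any group. They were COL1A2, COL2A1, COL11A1 and COL24A1 of the fibrillar class, COL10A1 of the network class, COL14A1, COL20A1, COL21A1, COL9A1, COL19A1 and COL22A1 of the FACITs, and COL25A1, COL6A5, COL6A6 and COL28A1 of the others. COL9A1, COL19A1, COL22A1 and COL6A5 had a count of 0 in every library, where 3 counts, the most that a count of 0 allows, correspond to 0.0639 to 0.0941 CPM, a limit that covers counting error only. The other 29 genes, 7 fibrillar, 8 network, 4 FACIT and 10 other, entered the tests.

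GNE-7883 moved collagen transcripts in both directions in sensitive cells, and fewer of them in resistant cells. In sensitive cells COL6A1, COL4A5, COL7A1 and COL16A1 were among 10 genes that rose, and COL1A1, COL4A4, COL5A2 and COL8A1 among 7 that fell. With 17 of 29 called against 58.1% of all 18035 genes tested, the share called was near the background, and the median log2 fold change was -0.01 against 0.02 over all genes. In resistant cells 6 collagen genes rose (COL1A1, COL5A1, COL4A5, COL16A1, COL6A1 and COL7A1) and 2 fell (COL27A1 and COL8A1), 8 of 29 against 9.22% of all genes (5.25% rose and 3.97% fell). The median was 0.15 log2 units for the collagens and 0.00 for all genes, and no collagen reached a log2 change of 1. A gene counts as called at an adjusted p under 0.05 (edgeR quasi-likelihood test, Benjamini-Hochberg over all genes tested), and its p-value reflects the spread of these libraries alone, which the labels do not say came from separate cultures. Values after ± are standard errors for log2 changes.

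Between the lines most collagens differed. In DMSO, 8 genes were higher and 19 lower in resistant than in sensitive cells, 27 of 29 against 48.7% of all genes (24.2% higher and 24.4% lower). The median log2 difference was -0.66 for the collagens and 0.00 for all genes. In GNE-7883, 9 were higher and 15 lower, 24 of 29 against 61.9% (30.7% higher and 31.1% lower), with medians of -0.56 and -0.01. COL4A5, COL4A6, COL8A1, COL13A1, COL17A1 and COL27A1 were called higher in resistant cells in both conditions. Called lower in both were COL12A1, COL16A1, COL18A1, COL23A1, COL26A1, COL3A1, COL4A1, COL5A2, COL5A3, COL6A1, COL6A2, COL7A1, COL9A2 and COL9A3. The share of all genes called the same way in both conditions is not given here. Each group of libraries enters a comparison of lines and a comparison of treatments. The response to GNE-7883 itself differed between the lines for 11 of 29 genes, against 35.7% of all genes.

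The count in resistant cells moved with single libraries. Without sensitive DMSO replicate 2, which enters through the shared estimate of spread, 12 collagens were called in resistant cells and 3060 genes in all, against 1663 genes in all with it. Without resistant GNE-7883 replicate 3 the numbers were 6 collagens and 854 genes, and without resistant DMSO replicate 1 they were 6 and 861. They were 7 and 984 without resistant GNE-7883 replicate 1 and 7 and 950.0 without resistant DMSO replicate 3. Collagen levels also lay to one side in a pair of resistant libraries: the collagens described by library deviated by a median of 0.22 log2 units in resistant DMSO replicate 2, and in resistant GNE-7883 replicate 2, with a median of -0.12, 17 of 19 lay below both other replicates. With that pair left out, an alternative chosen after seeing the data, COL4A2, COL6A2 and COL18A1 gained a call as rises (0.29, 0.47 and 0.60 log2 units). COL4A5 and COL27A1 lost their calls in that fit (0.32 and -0.23).

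**Figure D3:**
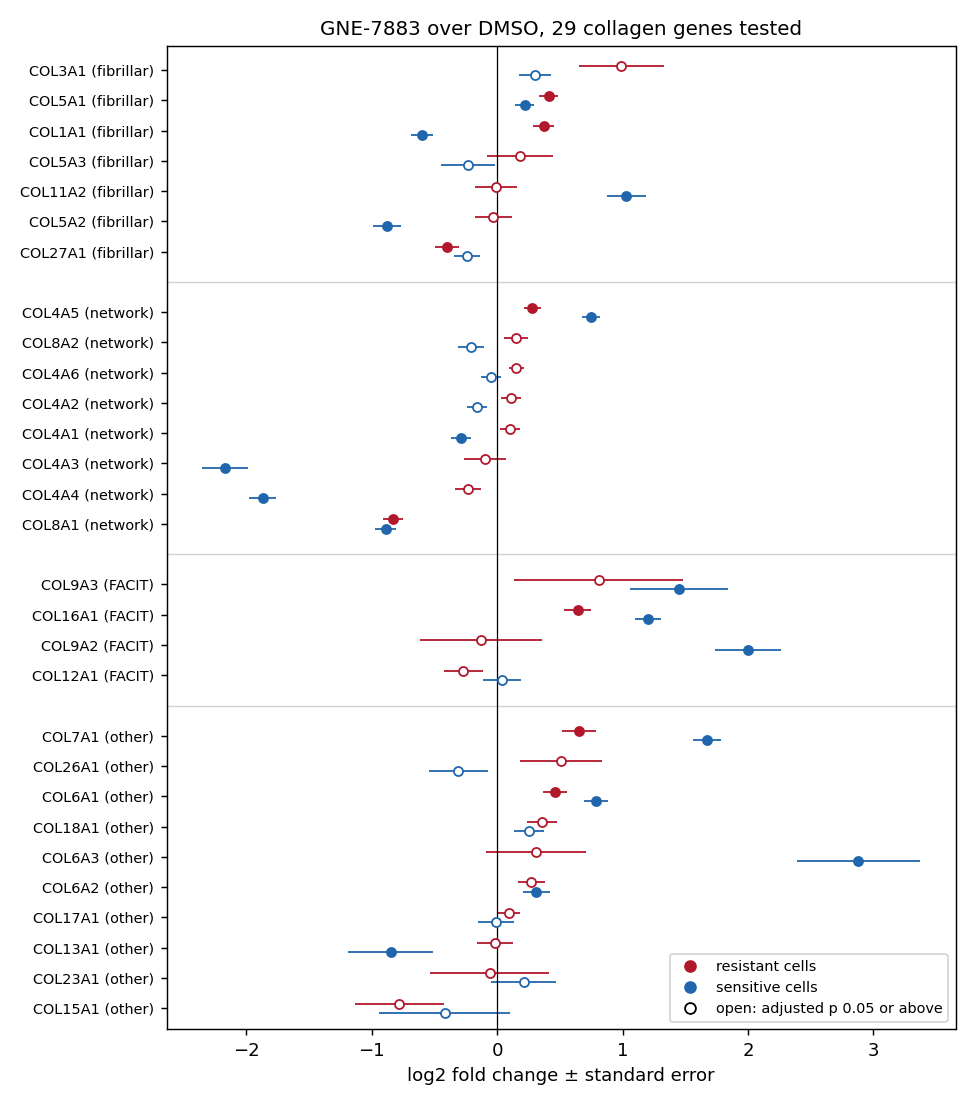
Log2 fold change of GNE-7883 over DMSO (horizontal axis, with standard error) for the 29 tested collagen genes in resistant (red) and sensitive (blue) cells, by class; filled points have an adjusted p under 0.05. COL1A1 lies on opposite sides of 0 in the lines, and COL4A3, COL4A4, COL9A2 and COL6A3 lie far from 0 in sensitive cells alone.

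Coordinates here are those of GENCODE release 29 on GRCh38. Type IV collagen is the network of basement membranes, and its genes lie as head-to-head pairs, each pair reading outward from a short shared stretch. COL4A1 and COL4A2 encode the chains found in nearly all basement membranes, and they were the most abundant pair. COL4A2 (ENSG00000134871, chr13:110305812-110513209, plus strand) measured 217, 188 and 207 RPKM in resistant GNE-7883 libraries, against 173, 216 and 176 in resistant DMSO. The sensitive line held 204, 187 and 205 with GNE-7883, against 217, 226 and 225 with DMSO. The treated and vehicle ranges overlapped in resistant cells and lay apart in sensitive cells. COL4A2 was not called for GNE-7883 in resistant cells (log2 0.11 ± 0.079, edgeR adjusted p = 0.448) or in sensitive cells (-0.16 ± 0.079, edgeR adjusted p = 0.0854). Without resistant DMSO replicate 2 it was called in resistant cells, at 0.22 with adjusted p = 0.0421, and without any single resistant library it was called in sensitive cells, at -0.20 with adjusted p from 0.00729 to 0.0431. It was lower in resistant than in sensitive cells in DMSO (-0.31 ± 0.079, edgeR adjusted p = 0.00369) and not called in GNE-7883 (-0.04 ± 0.079, edgeR adjusted p = 0.716). The difference of the responses was not called (0.28 ± 0.11, edgeR adjusted p = 0.0641), but it was without sensitive DMSO replicate 2 (0.28, adjusted p = 0.0316). It was also called without resistant DMSO replicate 2 (0.42, edgeR adjusted p = 0.00136) and without resistant GNE-7883 replicate 2 (0.37, edgeR adjusted p = 0.0164).

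COL4A1 (ENSG00000187498, chr13:110148963-110307233, minus strand) measured 106, 103 and 109 RPKM in resistant GNE-7883 libraries, against 93.8, 107 and 95.9 in resistant DMSO. In sensitive cells the values were 125, 118 and 122 with GNE-7883 and 154, 127 and 165 with DMSO. Every resistant library lay below every sensitive one, and the treated and vehicle groups separated in sensitive cells but overlapped in resistant ones. COL4A1 fell with GNE-7883 in sensitive cells (log2 -0.29 ± 0.081, edgeR adjusted p = 0.00636), was not called in resistant cells (0.10 ± 0.081, edgeR adjusted p = 0.536), and the responses differed (0.39 ± 0.11, edgeR adjusted p = 0.0154). It was lower in resistant cells both in GNE-7883 (-0.27 ± 0.081, edgeR adjusted p = 0.00784) and in DMSO (-0.66 ± 0.081, edgeR adjusted p = 5.39e-06); in GNE-7883 the call was lost without resistant GNE-7883 replicate 2, at -0.22 with adjusted p = 0.0581. COL4A2 exceeded COL4A1 in every library, by a ratio of 1.92 ± 0.114 in resistant GNE-7883, 1.90 ± 0.104 in resistant DMSO, 1.63 ± 0.0427 in sensitive GNE-7883 and 1.52 ± 0.227 in sensitive DMSO cells (SD, n = 3 each).

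COL4A3 and COL4A4 encode chains that join COL4A5 in specialised basement membranes such as that of the kidney glomerulus, and both fell with GNE-7883 in sensitive cells. COL4A4 (ENSG00000081052, chr2:227002711-227164453, minus strand) measured 3.88, 3.64 and 3.92 RPKM in resistant GNE-7883 libraries, against 4.45, 4.47 and 4.51 in resistant DMSO. Sensitive libraries measured 2.47, 2.20 and 2.34 with GNE-7883, against 9.36, 6.75 and 9.48 with DMSO. The sensitive groups were the lowest and the highest of the 4, and no groups overlapped. COL4A4 fell in sensitive cells (log2 -1.87 ± 0.11, edgeR adjusted p = 5.78e-10) and was not called in resistant cells (-0.23 ± 0.10, edgeR adjusted p = 0.196); without sensitive DMSO replicate 2 it was called there too, at -0.23 with adjusted p = 0.00342. The difference between the responses was called (1.63 ± 0.15, edgeR adjusted p = 5.02e-07).

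COL4A3 (ENSG00000169031, chr2:227164565-227314792, plus strand) followed the same order at a far lower level, 0.172 ± 0.00523 RPKM in resistant GNE-7883, 0.184 ± 0.0245 in resistant DMSO, 0.0767 ± 0.00664 in sensitive GNE-7883 and 0.345 ± 0.0574 in sensitive DMSO cells. The resistant groups overlapped, and the sensitive groups lay apart from them and from each other. COL4A3 fell in sensitive cells (log2 -2.17 ± 0.18, edgeR adjusted p = 4.91e-08), was not called in resistant cells (-0.10 ± 0.17, edgeR adjusted p = 0.793), and its responses also differed between lines (2.06 ± 0.25, edgeR adjusted p = 1.13e-05). Between the lines the pair was higher in resistant cells in GNE-7883 (1.08 ± 0.20 for COL4A3 and 0.63 ± 0.11 for COL4A4) and lower in DMSO (-0.98 ± 0.15 and -1.0 ± 0.10). All of these line differences were called. COL4A4 exceeded COL4A3 by a ratio between 20.5 and 35.2 in every library.

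Of COL4A5 and COL4A6, the pair on the X chromosome, GNE-7883 raised the first in both lines and gave no call for the second. COL4A5 (ENSG00000188153, chrX:108439844-108697545, plus strand) measured 36.4, 36.4 and 38.2 RPKM in resistant GNE-7883 libraries, against 30.2, 31.1 and 29.8 in resistant DMSO. It measured 19.5, 18.8 and 19.3 in sensitive GNE-7883 libraries, against 11.9, 9.93 and 12.4 in sensitive DMSO. The 4 groups kept apart, with treated above vehicle in each line and resistant above sensitive in each condition. COL4A5 rose with GNE-7883 in sensitive cells (log2 0.75 ± 0.071, edgeR adjusted p = 1.94e-07) and, less, in resistant cells (0.28 ± 0.070, edgeR adjusted p = 0.0182; difference -0.47 ± 0.099, edgeR adjusted p = 0.00156). The call in resistant cells was lost without either DMSO replicate 1 or 3 or GNE-7883 replicate 1 or 3, at 0.27 to 0.30 with adjusted p from 0.0511 to 0.0932, and without both resistant replicates 2, at 0.32 with adjusted p = 0.0622.

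COL4A6 (ENSG00000197565, chrX:108155607-108439497, minus strand), whose chain joins COL4A5 in the basement membranes of skin and smooth muscle, set the lines apart. It measured 6.92, 6.69 and 7.07 RPKM in resistant GNE-7883 libraries and 6.13, 6.56 and 5.89 in resistant DMSO. Values of the sensitive line were 0.631, 0.625 and 0.625 with GNE-7883 and 0.625, 0.680 and 0.641 with DMSO. The lines lay far apart, with log2 differences of 3.38 ± 0.073 (edgeR adjusted p = 4.2e-15) in GNE-7883 and 3.18 ± 0.071 (edgeR adjusted p = 9.17e-15) in DMSO. GNE-7883 made no called change in resistant (0.15 ± 0.060, edgeR adjusted p = 0.141) or sensitive cells (-0.05 ± 0.083, edgeR adjusted p = 0.669). COL4A5 exceeded COL4A6 by a ratio of 5.37 ± 0.0938 in resistant GNE-7883, 4.91 ± 0.160 in resistant DMSO, 30.6 ± 0.455 in sensitive GNE-7883 and 17.6 ± 2.63 in sensitive DMSO cells.

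**Figure D4:**
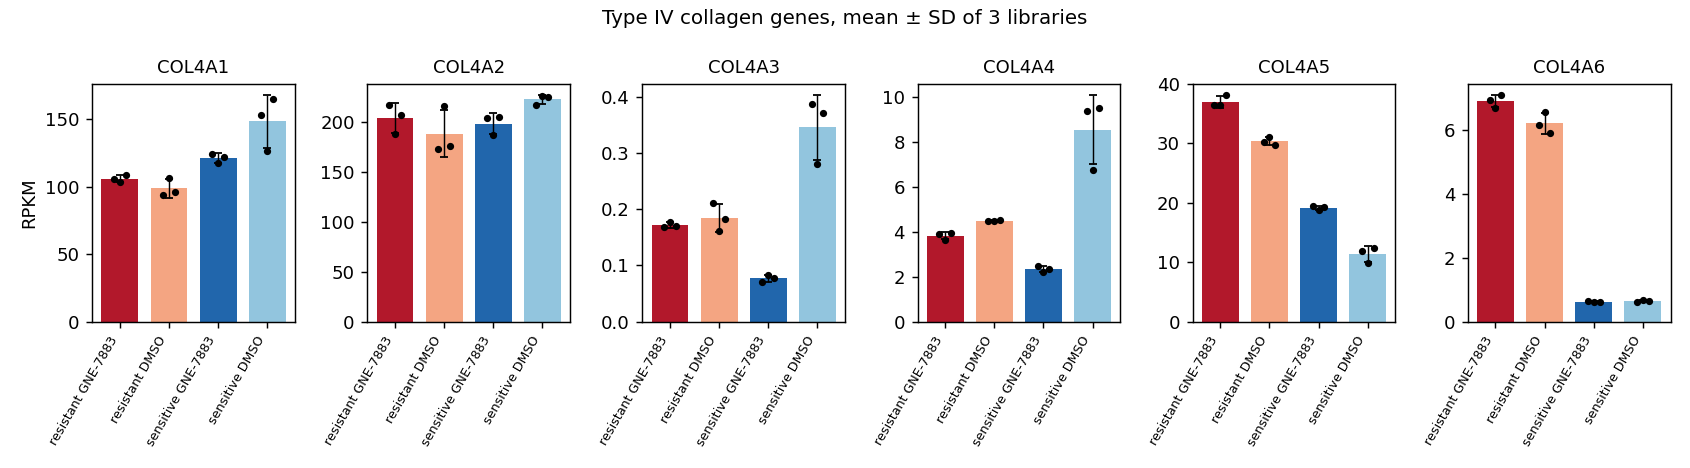
RPKM of the 6 type IV collagen genes in the 4 groups; bars are means of 3 libraries, whiskers SD and points single libraries, and each panel has its own axis from 0. COL4A3 and COL4A4 share the same order of groups, while COL4A5 climbs from sensitive DMSO to resistant GNE-7883 and COL4A6 is high in the resistant groups only.

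The stretches between the RefSeq start sites are shown because the calls of each pair of genes can be set side by side. In sensitive cells COL4A3 and COL4A4 both fell, COL4A1 fell while COL4A2 was not called, and COL4A5 rose while COL4A6 was not called. The stretches come from RefSeq on GRCh38.p14, are read on the plus strand, and end at the base before the RefSeq start of the plus-strand gene. The RefSeq start sites lie 126, 418 and 379 bases apart. Of the 2 RefSeq windows of COL4A6, the start nearer COL4A5 was used. The first is the whole stretch at chr13:110307158-110307283, the second the 250 bases before COL4A3 at chr2:227164374-227164623, and the third the 250 bases before COL4A5 at chrX:108439588-108439837. The GENCODE starts given above differ from these. By them the first stretch lies inside COL4A2 and partly in COL4A1, and the second overlaps both COL4A4 and COL4A3. Capitals mark matches on either strand to a GC box, GGGCGG, or a CCAAT box, CCAAT.
COL4A1-COL4A2: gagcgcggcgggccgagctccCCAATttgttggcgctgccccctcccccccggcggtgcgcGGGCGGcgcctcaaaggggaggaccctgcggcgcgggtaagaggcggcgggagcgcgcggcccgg
COL4A4-COL4A3: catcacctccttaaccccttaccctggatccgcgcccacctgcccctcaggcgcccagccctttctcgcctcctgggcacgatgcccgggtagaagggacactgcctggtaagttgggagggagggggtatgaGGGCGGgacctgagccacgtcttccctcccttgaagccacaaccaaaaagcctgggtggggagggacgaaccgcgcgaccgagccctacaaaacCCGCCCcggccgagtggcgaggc
COL4A6-COL4A5: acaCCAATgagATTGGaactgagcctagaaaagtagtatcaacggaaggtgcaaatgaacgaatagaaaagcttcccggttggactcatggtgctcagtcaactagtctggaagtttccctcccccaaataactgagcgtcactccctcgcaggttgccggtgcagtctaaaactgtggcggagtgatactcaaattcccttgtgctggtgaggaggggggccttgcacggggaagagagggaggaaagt
The first held 1 GC box and 1 CCAAT box, the second 2 GC boxes, and the third 2 CCAAT boxes; their GC content was 80.2%, 66.4% and 51.2%. None of the 3 held GGAATG, a core of TEAD sites, or TGANTCA, an AP-1 site.

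Promoter windows of 300 bases, 250 before and 50 after the start, were at hand for 32 of the 44 collagen genes. GGAATG stood in the windows of 3 of the 32 genes (9.38%), against 16.7% of 27305 genes with windows, searched on both strands. Among tested collagens these were COL11A2 and COL12A1. TGANTCA stood in 1 of the 32 (3.12%, against 9.37%), COL10A1, which was not tested. The GC box stood in 21 (65.6%, against 48.3%), CCAAT in 12 (37.5%, against 39.7%) and TATAAA in 7 (21.9%, against 14.0%). A match describes the letters only. The genes with no entry were COL1A1, COL1A2, COL2A1, COL3A1, COL5A2, COL6A1, COL6A5, COL8A1, COL9A3, COL14A1, COL20A1 and COL22A1.

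COL8A1 and COL8A2 encode the short chains of type VIII collagen, a hexagonal network best known beneath the corneal endothelium and in vessel walls. COL8A1 (ENSG00000144810, chr3:99638475-99799226, plus strand) measured 8.23, 7.86 and 7.99 RPKM in resistant GNE-7883 libraries, against 14.3, 14.2 and 14.2 in resistant DMSO. It measured 4.21, 4.27 and 3.93 in sensitive GNE-7883 libraries, against 8.02, 6.54 and 8.48 in sensitive DMSO. Treated libraries lay below vehicle libraries in both lines with no overlap. COL8A1 fell in resistant cells (log2 -0.83 ± 0.080, edgeR adjusted p = 8.51e-06) and in sensitive cells (-0.89 ± 0.083, edgeR adjusted p = 1.72e-07), and it was the only collagen called lower in both. It was also higher in resistant cells, by 0.88 ± 0.083 in GNE-7883 and 0.81 ± 0.080 in DMSO. The test of the difference of responses gave 0.06 ± 0.11 (edgeR adjusted p = 0.703). COL8A2 was called in 1 comparison, higher in resistant than in sensitive cells in GNE-7883 (0.40 ± 0.10, edgeR adjusted p = 0.00297).

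Among fibrillar genes, COL1A1 (ENSG00000108821, chr17:50183289-50201632, minus strand), the main chain of type I collagen, responded in opposite directions. It measured 81.7, 72.1 and 76.6 RPKM in resistant GNE-7883 libraries, against 53.8, 67.5 and 56.5 in resistant DMSO. Levels in sensitive cells were 67.9, 58.5 and 65.7 with GNE-7883, against 93.1, 104 and 93.9 with DMSO. Treated libraries lay above vehicle in resistant cells and below it in sensitive cells, without overlap in either. COL1A1 rose in resistant cells (log2 0.37 ± 0.084, edgeR adjusted p = 0.0112) and fell in sensitive cells (-0.60 ± 0.084, edgeR adjusted p = 1.71e-05), with a called difference between the responses (0.97 ± 0.12, edgeR adjusted p = 1.25e-05). The rise in resistant cells lost its call without resistant DMSO replicate 1, at 0.31 with adjusted p = 0.0521. Resistant cells were lower in DMSO (-0.78 ± 0.085, edgeR adjusted p = 1.29e-06), and the difference in GNE-7883 was not called (0.18 ± 0.084, edgeR adjusted p = 0.0685), although it was in 6 leave-one-out fits, those without sensitive DMSO replicate 2, sensitive GNE-7883 replicate 1, resistant GNE-7883 replicate 2 or any resistant DMSO library (0.20 to 0.26, adjusted p from 0.00997 to 0.0416).

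COL1A2, whose chain normally completes the type I helix, was almost undetected beside it. Its counts were 0, 1 and 0 in resistant GNE-7883, 3, 0 and 0 in resistant DMSO, 0, 12 and 3 in sensitive GNE-7883 and 0, 0 and 0 in sensitive DMSO libraries. The 19 counts over 12 libraries compare with 241621 for COL1A1. COL1A2 was not tested, and 12 of its counts came from 1 library.

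COL5A1 and COL5A2 encode chains of type V collagen, which starts and limits fibrils, and they stood far apart. COL5A1 (ENSG00000130635, chr9:134641774-134844843, plus strand) measured 55.1, 49.6 and 51.8 RPKM in resistant GNE-7883 libraries, against 36.3, 43.9 and 37.5 in resistant DMSO. The sensitive groups measured 53.6, 48.0 and 53.0 with GNE-7883, against 43.9, 42.4 and 46.9 with DMSO. Treated libraries exceeded vehicle libraries in both lines. COL5A1 rose in resistant cells (log2 0.41 ± 0.076, edgeR adjusted p = 0.00266) and in sensitive cells (0.22 ± 0.075, edgeR adjusted p = 0.0223); the second call was lost in 5 of the 12 leave-one-out fits, those without sensitive DMSO replicate 1, sensitive GNE-7883 replicate 1 or 3, resistant DMSO replicate 3 or resistant GNE-7883 replicate 3 (0.18 to 0.21, adjusted p up to 0.0773). The difference of the responses was not called (0.19 ± 0.11, edgeR adjusted p = 0.178). It was called without sensitive DMSO replicate 2 (0.24, edgeR adjusted p = 0.0484) and without resistant DMSO replicate 2 (0.32, edgeR adjusted p = 0.0185). COL5A1 was slightly lower in resistant cells in DMSO (-0.25 ± 0.076, edgeR adjusted p = 0.0119). That call was lost without sensitive DMSO replicate 3 or resistant DMSO replicate 1 (edgeR adjusted p = 0.0558 and 0.0537).

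COL5A2 (ENSG00000204262, chr2:189031896-189225312, minus strand) was lower than its partner in every library, at 0.267, 0.266 and 0.294 RPKM in resistant GNE-7883 and 0.252, 0.264 and 0.334 in resistant DMSO. It measured 0.588, 0.676 and 0.680 in sensitive GNE-7883 libraries, against 1.08, 1.20 and 1.31 in sensitive DMSO. Every resistant library lay below every sensitive one, and treatment separated the sensitive libraries only. COL5A2 fell in sensitive cells (log2 -0.88 ± 0.11, edgeR adjusted p = 5e-06), was not called in resistant cells (-0.03 ± 0.14, edgeR adjusted p = 0.94), and the responses differed (0.85 ± 0.18, edgeR adjusted p = 0.0018). The resistant line was lower, at -1.31 ± 0.13 in GNE-7883 and -2.17 ± 0.12 in DMSO, both called. The ratio of COL5A1 to COL5A2 was 189.8 ± 15.4 in resistant GNE-7883, 141 ± 26.9 in resistant DMSO, 80.0 ± 10.2 in sensitive GNE-7883 and 37.2 ± 2.97 in sensitive DMSO cells. COL5A3, a further type V chain, was lower in resistant cells too, at -0.84 ± 0.24 in GNE-7883 and -1.24 ± 0.24 in DMSO.

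COL3A1 (ENSG00000168542, chr2:188974320-189012746, plus strand), the chain of type III collagen in pliable tissue such as skin and vessel walls, showed the widest gap of the 29 genes between the lines. It measured 0.0768, 0.0736 and 0.0757 RPKM in resistant GNE-7883 libraries and 0.0469, 0.0479 and 0.0113 in resistant DMSO, from 20, 17 and 15 and 11, 12 and 2 counts. In sensitive cells it measured 1.25, 1.04 and 0.993 with GNE-7883 and 0.879, 0.889 and 0.908 with DMSO. No resistant library came near a sensitive one, with log2 differences of -3.93 ± 0.19 (edgeR adjusted p = 3.28e-11) in GNE-7883 and -4.62 ± 0.22 (edgeR adjusted p = 6.06e-11) in DMSO. Neither response to GNE-7883 was called, at 0.99 ± 0.34 (edgeR adjusted p = 0.0837) in resistant and 0.30 ± 0.13 (edgeR adjusted p = 0.0596) in sensitive cells; in sensitive cells it was called without sensitive GNE-7883 replicate 3 (0.37, adjusted p = 0.0445) and without resistant DMSO replicate 3 (0.26, adjusted p = 0.0455).

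COL27A1 (ENSG00000196739, chr9:114155560-114312511, plus strand), a fibrillar chain made in developing cartilage, measured 1.47, 1.21 and 1.38 RPKM in resistant GNE-7883 libraries, against 1.70, 1.99 and 1.67 in resistant DMSO. The sensitive line held 1.03, 0.962 and 1.04 with GNE-7883, against 1.30, 1.09 and 1.20 with DMSO. It fell in resistant cells (log2 -0.40 ± 0.099, edgeR adjusted p = 0.0176), where treated and vehicle libraries did not overlap. That call was lost without resistant DMSO replicate 2, resistant GNE-7883 replicate 2 or resistant GNE-7883 replicate 3, at -0.31, -0.32 and -0.41 with adjusted p from 0.0551 to 0.0821, and without both replicates 2 it was -0.23 with adjusted p = 0.233. In sensitive cells the change was -0.24 ± 0.10 (edgeR adjusted p = 0.0583), and it was called without sensitive DMSO replicate 2 (-0.32, adjusted p = 0.0131) and without any single resistant library (-0.28). It was higher in resistant cells in GNE-7883 (0.35 ± 0.10) and in DMSO (0.51 ± 0.099), both called.

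COL11A2 (ENSG00000204248, chr6:33162681-33192499, minus strand), a type XI chain of cartilage fibrils, stayed under 1 RPKM. It measured 0.535, 0.487 and 0.438 RPKM in resistant GNE-7883 libraries and 0.579, 0.549 and 0.321 in resistant DMSO, against 0.924, 0.897 and 0.968 in sensitive GNE-7883 and 0.474, 0.407 and 0.486 in sensitive DMSO. The sensitive GNE-7883 libraries stood above all others. COL11A2 rose in sensitive cells (log2 1.03 ± 0.16, edgeR adjusted p = 3.94e-05), was not called in resistant cells (-0.01 ± 0.17, edgeR adjusted p = 0.985), and the responses differed (-1.04 ± 0.23, edgeR adjusted p = 0.00222).

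The FACITs were a small part of the total, and all 4 tested were called lower in resistant cells in GNE-7883, against 31.1% of all genes, and in DMSO, against 24.4%. In DMSO the calls of COL16A1 and COL9A3 did not hold in every leave-one-out fit, and for COL9A2 the lines overlapped. COL12A1 (ENSG00000111799, chr6:75084326-75206051, minus strand), which links fibrils to the matrix around them, measured 14.6, 14.7 and 14.0 RPKM in resistant GNE-7883 libraries and 16.2, 16.2 and 19.6 in resistant DMSO. Sensitive libraries measured 33.4, 28.7 and 27.9 with GNE-7883 and 31.7, 19.9 and 35.9 with DMSO. Every resistant library was below every sensitive one, but the nearest value on the sensitive side was that of DMSO replicate 2. Its level was lower in the resistant line, at -1.13 ± 0.16 (edgeR adjusted p = 9.96e-06) in GNE-7883 and -0.82 ± 0.15 (edgeR adjusted p = 0.000349) in DMSO, on the log2 scale. GNE-7883 made no called change in sensitive cells (0.04 ± 0.15, edgeR adjusted p = 0.839; without sensitive DMSO replicate 2, -0.18 with adjusted p = 0.0585). In resistant cells the value was -0.27 ± 0.15 (edgeR adjusted p = 0.342), called without that library (-0.26, adjusted p = 0.0151).

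COL16A1 (ENSG00000084636, chr1:31652247-31704319, minus strand), a FACIT of skin and cartilage, rose in both lines. It measured 1.58, 1.54 and 1.74 RPKM in resistant GNE-7883 libraries, against 1.08, 1.14 and 0.874 in resistant DMSO. Values of the sensitive line were 2.84, 2.49 and 2.99 with GNE-7883, against 1.15, 1.32 and 1.16 with DMSO. Treated libraries lay above vehicle libraries with no overlap in either line. The rise was 0.64 ± 0.11 (edgeR adjusted p = 0.00121) in resistant and 1.20 ± 0.10 (edgeR adjusted p = 5.96e-08) in sensitive cells, on the log2 scale, and it differed between the lines (-0.56 ± 0.15, edgeR adjusted p = 0.00736). Resistant cells were lower, at -0.85 ± 0.10 in GNE-7883 and -0.29 ± 0.11 in DMSO; in DMSO the call was lost without sensitive DMSO replicate 2 (-0.22, adjusted p = 0.111) and without resistant DMSO replicate 3 (-0.21, adjusted p = 0.133), and with only the groups compared in the fit (-0.31, adjusted p = 0.0588). COL9A2 and COL9A3, type IX chains known from cartilage, rose in sensitive cells from very low levels. COL9A2 had 7, 10 and 4 counts in resistant GNE-7883, 8, 5 and 9 in resistant DMSO, 73, 72 and 71 in sensitive GNE-7883 and 30, 22 and 10 in sensitive DMSO libraries. Its log2 change was 2.00 ± 0.26 (edgeR adjusted p = 7.11e-06) in sensitive and -0.13 ± 0.49 (edgeR adjusted p = 0.917) in resistant cells (difference -2.13 ± 0.57, edgeR adjusted p = 0.00809), and that of COL9A3 was 1.45 ± 0.39 and, not called, 0.81 ± 0.67. For COL9A3 the lower level in resistant DMSO cells (-1.70 ± 0.60, edgeR adjusted p = 0.0269) lost its call without sensitive DMSO replicate 1 (-1.18) or resistant DMSO replicate 2 (-1.24). COL9A2 was lower in resistant DMSO cells by -1.47 ± 0.39 (edgeR adjusted p = 0.00543), with overlapping RPKM values.

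Type VI collagen forms beaded filaments that tie cells to the matrix, and COL6A1 was the most abundant collagen transcript in sensitive GNE-7883 cells. COL6A1 (ENSG00000142156, chr21:45981737-46005050, plus strand) measured 119, 102 and 108 RPKM in resistant GNE-7883 libraries, against 71.7, 92.9 and 73.9 in resistant DMSO. Levels in sensitive cells were 337, 306 and 348 with GNE-7883, against 178, 211 and 184 with DMSO. All 4 groups were apart, treated above vehicle and resistant below sensitive. COL6A1 rose in resistant cells (log2 0.46 ± 0.095, edgeR adjusted p = 0.00562) and in sensitive cells (0.79 ± 0.095, edgeR adjusted p = 2.94e-06). The difference of the responses was not called (-0.33 ± 0.13, edgeR adjusted p = 0.0689), but it was without sensitive DMSO replicate 2 (-0.39, adjusted p = 0.00909) and without resistant DMSO replicate 1 (-0.36, adjusted p = 0.043). The resistant line was lower, at -1.67 ± 0.097 in GNE-7883 and -1.34 ± 0.096 in DMSO, both called.

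COL6A2 (ENSG00000142173, chr21:46098097-46132849, plus strand), the partner chain, measured 33.2, 28.4 and 29.4 RPKM in resistant GNE-7883 libraries, against 22.8, 30.1 and 22.8 in resistant DMSO. The sensitive groups measured 49.7, 45.4 and 52.4 with GNE-7883, against 36.3, 45.2 and 37.9 with DMSO. Treated and vehicle libraries were just apart in sensitive cells. COL6A2 rose there (log2 0.31 ± 0.11, edgeR adjusted p = 0.0219), though the call was lost in 4 leave-one-out fits (0.25 to 0.30, adjusted p from 0.0504 to 0.0825), those without sensitive DMSO replicate 1 or 3 or sensitive GNE-7883 replicate 1 or 3. In resistant cells treated and vehicle libraries overlapped and the change was 0.27 ± 0.11 (edgeR adjusted p = 0.152), called without sensitive DMSO replicate 2 (adjusted p = 0.0326) and without resistant DMSO replicate 2 (0.41, adjusted p = 0.0113). The ratio of COL6A1 to COL6A2 was 3.62 ± 0.0494 in resistant GNE-7883, 3.16 ± 0.0764 in resistant DMSO, 6.72 ± 0.0698 in sensitive GNE-7883 and 4.82 ± 0.133 in sensitive DMSO cells, with no overlap between any groups.

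COL6A3, the large chain that completes the common form of type VI, was near the detection limit. Its counts were 21, 11 and 12 in resistant GNE-7883, 9, 17 and 8 in resistant DMSO, 22, 25 and 13 in sensitive GNE-7883 and 1, 4 and 4 in sensitive DMSO libraries. It rose in sensitive cells (log2 2.88 ± 0.49, edgeR adjusted p = 0.000104) from 9 counts in the 3 vehicle libraries, and was not called in resistant cells (0.31 ± 0.40, edgeR adjusted p = 0.725; difference -2.57 ± 0.66, edgeR adjusted p = 0.00608). Its higher level in resistant DMSO cells (1.86 ± 0.55, edgeR adjusted p = 0.0105) lost its call without sensitive DMSO replicate 1 (1.42, adjusted p = 0.0509) and without resistant DMSO replicate 2 (1.56, adjusted p = 0.0577).

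COL7A1 (ENSG00000114270, chr3:48564073-48595267, minus strand), the anchoring fibril of epithelial basement membranes, rose in both lines at a low level. It measured 0.351, 0.30 and 0.320 RPKM in resistant GNE-7883 libraries, against 0.206, 0.229 and 0.176 in resistant DMSO. In sensitive cells it measured 1.34, 1.05 and 1.23 with GNE-7883, against 0.378, 0.383 and 0.386 with DMSO. No groups overlapped, with resistant GNE-7883 just under sensitive DMSO. The log2 change was 0.65 ± 0.14 (edgeR adjusted p = 0.00624) in resistant and 1.67 ± 0.11 (edgeR adjusted p = 3.41e-09) in sensitive cells, and the difference was called (-1.01 ± 0.18, edgeR adjusted p = 0.000346). Its level was lower in the resistant line, at -1.98 ± 0.11 in GNE-7883 and -0.97 ± 0.13 in DMSO.

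COL17A1 and COL13A1, transmembrane collagens of hemidesmosomes and of cell-matrix contacts, were higher in the resistant line. COL23A1, also transmembrane, was lower in it, with values given below. COL17A1 (ENSG00000065618, chr10:104031286-104085957, minus strand) measured 2.13, 1.85 and 2.17 RPKM in resistant GNE-7883 libraries and 1.91, 2.09 and 1.77 in resistant DMSO. The sensitive line held 0.241, 0.252 and 0.269 with GNE-7883 and 0.269, 0.239 and 0.258 with DMSO. The lines did not overlap, and treated and vehicle libraries did in each. The log2 difference between the lines was 2.93 ± 0.11 (edgeR adjusted p = 3.2e-12) in GNE-7883 and 2.84 ± 0.11 (edgeR adjusted p = 7.49e-12) in DMSO. COL13A1 averaged 1.22 ± 0.160 RPKM in resistant GNE-7883, 1.23 ± 0.162 in resistant DMSO, 0.0759 ± 0.0292 in sensitive GNE-7883 and 0.138 ± 0.0242 in sensitive DMSO cells. It was higher in resistant cells by 3.90 ± 0.23 (edgeR adjusted p = 5.15e-10) in GNE-7883 and 3.07 ± 0.20 (edgeR adjusted p = 3.25e-09) in DMSO. Its fall with GNE-7883 in sensitive cells (-0.85 ± 0.34, edgeR adjusted p = 0.0405) rested on few counts and was lost without sensitive DMSO replicate 1 or 2 or sensitive GNE-7883 replicate 1 or 2 (-0.64 to -0.82, adjusted p from 0.0848 to 0.155; -0.75 without sensitive DMSO replicate 2), and with only the groups compared in the fit (-0.86, adjusted p = 0.0576).

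COL18A1 (ENSG00000182871, chr21:45405137-45513720, plus strand), the multiplexin of basement membranes and source of endostatin, measured 37.0, 30.9 and 32.4 RPKM in resistant GNE-7883 libraries, against 22.9, 31.9 and 23.2 in resistant DMSO. Sensitive libraries measured 47.7, 41.1 and 50.9 with GNE-7883, against 36.4, 43.9 and 37.1 with DMSO. Treated and vehicle libraries overlapped in both lines, and resistant lay below sensitive libraries in each condition. Resistant cells were lower, at -0.56 ± 0.12 (edgeR adjusted p = 0.000772) in GNE-7883 and -0.66 ± 0.12 (edgeR adjusted p = 0.000262) in DMSO. GNE-7883 gave no call, at 0.36 ± 0.12 (edgeR adjusted p = 0.0752) in resistant and 0.25 ± 0.12 (edgeR adjusted p = 0.0802) in sensitive cells; without resistant DMSO replicate 2 both were called, at 0.54 with adjusted p = 0.00342 and at 0.22 with adjusted p = 0.0389, and without sensitive DMSO replicate 2 both were called too, at 0.36 with adjusted p = 0.0132 and at 0.34 with adjusted p = 0.0121. The change in sensitive cells was also called without sensitive GNE-7883 replicate 2, at 0.33 with adjusted p = 0.0422. Of its exon bases 16.4% are shared with other genes, chiefly SLC19A1 on the opposite strand, and the library kit does not mark strand, so its values are uncertain; no other collagen shared over 5%. COL15A1, COL23A1 and COL26A1 were under 0.5 RPKM in every group. COL23A1 and COL26A1 were lower in resistant cells in both conditions (-2.60 ± 0.34 and -1.04 ± 0.27 in GNE-7883, -2.33 ± 0.35 and -1.86 ± 0.28 in DMSO), and COL15A1 was higher in resistant cells in DMSO (1.43 ± 0.39, edgeR adjusted p = 0.00664). In GNE-7883 COL15A1 was not called (1.07 ± 0.47, edgeR adjusted p = 0.0604), but it was without sensitive DMSO replicate 2 (1.08, adjusted p = 0.0433). It was also called without sensitive GNE-7883 replicate 3 (1.53, edgeR adjusted p = 0.033) and without resistant GNE-7883 replicate 2 (1.30, edgeR adjusted p = 0.0375).

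**Figure D5:**
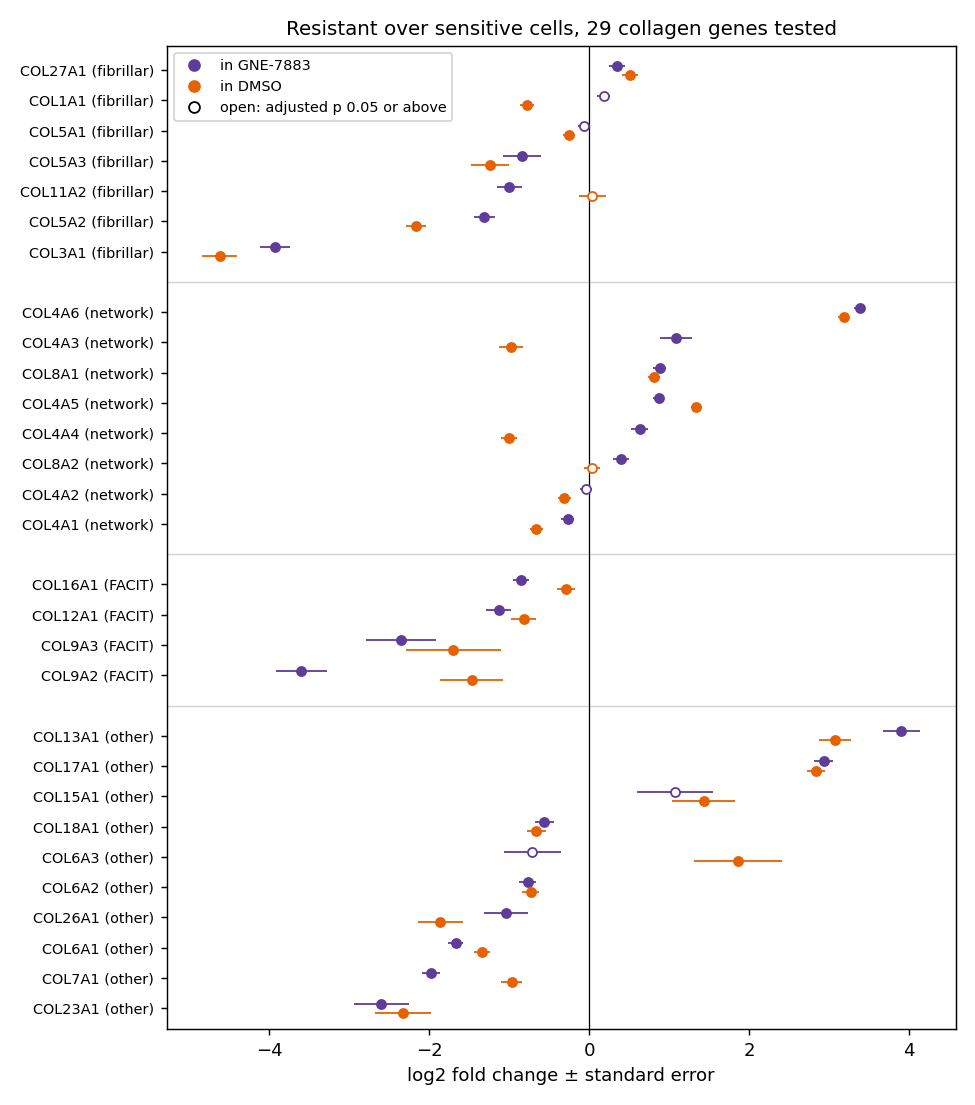
Log2 fold change of resistant over sensitive cells (horizontal axis, with standard error) for the 29 tested collagen genes in GNE-7883 (purple) and DMSO (orange), by class; filled points have an adjusted p under 0.05. All 4 FACIT genes lie left of 0 in both conditions, COL4A6, COL13A1 and COL17A1 lie near 3 or beyond, and COL4A3 and COL4A4 change side between the conditions.

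Genes that modify, process, cross-link, bind or sense collagen were read from 6 lists. Of 20 genes for modification and folding in the endoplasmic reticulum, none was called for GNE-7883 in resistant cells (edgeR; 0 also at an unadjusted p under 0.05 and with DESeq2), against 9.22% of all genes, while 5 rose and 11 fell in sensitive cells, against 29.8% and 28.4% of all genes. In sensitive cells FKBP14, a prolyl isomerase that assists collagen folding, rose to 20.6 ± 0.798 CPM with GNE-7883, against 10.7 ± 1.51 with DMSO (SD, n = 3; log2 0.94 ± 0.10). P3H3, a prolyl hydroxylase, fell to 13.8 ± 0.802 CPM with GNE-7883, against 25.7 ± 3.43 with DMSO (-0.89 ± 0.11). Between the lines in DMSO 3 of the 20 were higher and 7 lower in resistant cells, a share near the 48.7% of all genes called, with SERPINH1, the collagen chaperone, at 478 ± 22.7 CPM in resistant and 730.3 ± 60.3 in sensitive cells (-0.61 ± 0.061). In GNE-7883 9 were higher and 6 lower, against 30.7% and 31.1% of all genes; PLOD3, a lysyl hydroxylase, was higher (0.88 ± 0.078) and PLOD2 lower (-0.71 ± 0.065).

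Of 8 procollagen processing genes, 2 rose in resistant cells, against 5.25% of all genes. In sensitive cells 2 rose and 2 fell, 50.0% called against 58.1% of all genes. The same genes led the rise in both lines: ADAMTS2, which trims the amino-terminal propeptide, and BMP1, which trims the carboxy-terminal one. BMP1 reached 204 ± 12.9 CPM in resistant GNE-7883, against 148 ± 13.7 in resistant DMSO, and 466 ± 13.4 in sensitive GNE-7883, against 239 ± 9.82 in sensitive DMSO cells. Its log2 change was 0.46 ± 0.068 in resistant and 0.96 ± 0.068 in sensitive cells, and that of ADAMTS2 0.58 ± 0.066 and 1.29 ± 0.066.

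All 6 cross-linking genes were called in sensitive cells, 2 higher and 4 lower, against 58.1% of all genes, and 1 in resistant cells, against 9.22%. LOXL2, a lysyl oxidase, stood at 1773 ± 106 CPM in resistant GNE-7883 and 1734 ± 108 in resistant DMSO cells. It fell to 471 ± 29.4 CPM in sensitive GNE-7883, against 1191 ± 28.5 in sensitive DMSO cells (log2 -1.34 ± 0.062), and the responses differed (1.37 ± 0.087). LOX was higher in resistant cells in both conditions (1.61 ± 0.057 in GNE-7883, 1.93 ± 0.057 in DMSO), and LOXL4 was lower (-2.89 ± 0.15 and -3.76 ± 0.15). LOXL3 was the gene called in resistant cells (-0.40 ± 0.083) and fell further in sensitive cells (-1.57 ± 0.087; difference 1.17 ± 0.12). PXDN, which cross-links type IV collagen, rose in sensitive cells (0.56 ± 0.072).

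Of 11 fibril-associated genes 6 could be tested, and 3 rose in resistant cells, against 5.25% of all genes. In sensitive cells 2 rose and 2 fell, a share near the 58.1% of all genes called. SPARC, a collagen-binding glycoprotein, rose in resistant cells (0.16 ± 0.039) and fell in sensitive cells (-0.38 ± 0.039), with a called difference of responses (0.54 ± 0.055), and FN1, fibronectin, was higher in resistant cells (1.90 ± 0.12 in GNE-7883, 2.10 ± 0.12 in DMSO). Among 9 tested basement membrane partners of type IV collagen, 1 was called in resistant cells with edgeR, a rise, against 9.22% of all genes. DESeq2 called 5 there, but its share over all genes is not given here, so that count has no background beside it. In sensitive cells 4 rose, against 29.8% of all genes; LAMB1, a laminin chain, rose in sensitive cells (0.65 ± 0.059), and LAMA5 was lower in resistant cells (-1.0 ± 0.13 in GNE-7883, -1.04 ± 0.13 in DMSO).

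Among 12 genes for collagen receptors and uptake, 11 could be tested. Of these, 6 rose in resistant cells, against 5.25% of all genes, and 9 rose and 1 fell in sensitive cells, against 29.8% and 28.4%. The list's median was 0.34 log2 units in resistant and 0.63 in sensitive cells, against 0.00 and 0.02 over all genes. ITGA1, a collagen-binding integrin chain, reached 6.80 ± 0.547 CPM in resistant GNE-7883, against 3.65 ± 0.559 in resistant DMSO, and 21.1 ± 0.453 in sensitive GNE-7883, against 3.81 ± 1.02 in sensitive DMSO cells. Its changes were 0.91 ± 0.15 and 2.46 ± 0.14, and the difference was called (-1.56 ± 0.21). DDR1, a receptor kinase for collagen, rose by 0.43 ± 0.065 in resistant and 0.96 ± 0.065 in sensitive cells, and ITGA11, another collagen-binding integrin chain, by 1.41 ± 0.10 and 1.5 ± 0.14. MRC2, which takes collagen up for degradation, was lower in resistant cells (-1.72 ± 0.075 in GNE-7883, -1.43 ± 0.075 in DMSO). Every difference described here as a rise, a fall or a called difference in these lists had an edgeR adjusted p under 0.05.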

How the data were processed

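RNA from 12 libraries (2 cell lines, 2 conditions, 3 libraries each) was sequenced as single-end 50-base reads from a kit that does not mark strand, per the labels' protocols. The authors deposited whole-number read counts per Ensembl gene and a table of RPKM values of the same libraries. RPKM in the deposited table equalled the count divided by gene length and library total, with a relative deviation of at most 1.8e-08 over 12122 genes with at least 50 counts. Per the submitters' processing notes, GSNAP, limma and GRCh38.p10 were used; counting tool, annotation and strand setting: not given in the sources used here. Symbols, biotypes, coordinates and shared exon bases came from GENCODE release 29 (58039 identifiers matched, 263 did not), which may differ from the authors' annotation.

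TMM-scaled counts of the 18035 genes that filterByExpr kept were tested with edgeR 4.0.16 under R 4.3.3, by quasi-likelihood fits with 1 mean per group (8 residual degrees of freedom), two-sided, and Benjamini-Hochberg adjustment over all genes in each of 5 comparisons. Errors of log2 fold changes are standard errors, the log2 fold change divided by the square root of F. Levels are given as RPKM, or as TMM-scaled CPM for other genes, with SD. Collagens with at least 5 RPKM or 5 CPM in a group were described by library; from each of 6 lists, genes were named from the 2 called genes with the largest change in each direction with at least 5 CPM, per comparison. The members and lists were chosen with earlier results of these data known. DESeq2 1.42.0 served as an alternative. The edgeR and DESeq2 tests of GNE-7883 against DMSO in sensitive cells were also run on simulated data, and the other comparisons were not.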

Additional observations from a re-analysis of the deposited data

Results flagged for a closer look

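For 11 collagen genes the response to GNE-7883 differed between resistant and sensitive cells by a test of the difference itself (resistant minus sensitive response, edgeR quasi-likelihood test with adjusted p under 0.05). That is 11 of 29 tested, near the 35.7% of all genes called in this test. The response was lower in resistant cells for COL6A3 (-2.57 log2 units), COL9A2 (-2.13), COL11A2 (-1.04), COL7A1 (-1.01), COL16A1 (-0.56) and COL4A5 (-0.47), all of which rose in sensitive cells. It was higher in resistant cells for COL4A3 (2.06), COL4A4 (1.63), COL1A1 (0.97), COL5A2 (0.85) and COL4A1 (0.39), all of which fell in sensitive cells. The sensitive response is subtracted in this difference, so its direction and that of the difference are not independent. COL1A1 was the one gene among these called in opposite directions in the lines. COL6A3 and COL9A2 rest on few counts, at most 25 and 73 in a library. With resistant DMSO replicate 2 and resistant GNE-7883 replicate 2 left out, COL6A3 (-2.07, adjusted p = 0.0502) and COL16A1 (-0.42, adjusted p = 0.067) lost the call.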

How the results depend on the processing

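Of 145 combinations of a collagen gene and a comparison, 87 were called. Of these, 74 kept the call under every alternative in which the gene was tested, and 13 lost it under at least 1. A further 20 gained the call under at least 1. A gene removed by the 5 CPM filter was not counted as losing its call. The alternatives were DESeq2 size factors, the DESeq2 test, no filter on low counts, a filter of 5 CPM and only the groups compared. They also included a replicate block, each of the 12 libraries left out in turn and 2 resistant libraries left out together. The labels do not say whether the replicate numbers pair the libraries. Of 18 correlations of deviations between same-numbered libraries, 3 passed 0.1 (-0.27 to 0.33). With 3 libraries per group these cannot decide whether the numbers pair libraries. A replicate block gave 16 called collagens for GNE-7883 in sensitive cells and 8 in resistant cells. It gave 26 between lines in DMSO, 24 in GNE-7883 and 11 for the difference of responses. The main fit gave 17, 8, 27, 24 and 11. Under the block COL16A1 between lines in DMSO (-0.29, edgeR adjusted p = 0.0549) and COL13A1 in sensitive cells (-0.85, edgeR adjusted p = 0.051) lost the call. Leaving out 1 library gave 14 to 20, 6 to 12, 25 to 27, 24 to 26 and 11 to 15, and the other alternatives 13 to 21, 8 to 11, 18 to 27, 16 to 26 and 8 to 16, with the lowest under the 5 CPM filter, which left 19 collagens to test. Thresholds of 0.5 RPKM, 2 RPKM or 1 CPM gave between 14 and 25 expressed collagens in place of 19. The sign changed for 18 combinations, none called in either fit, and the cause was not tested; the range with libraries left out is given first. For GNE-7883 in sensitive cells these were COL17A1 (-0.06 to 0.04, and 0.02 with the 5 CPM filter) and COL12A1 (-0.18 to 0.21). In resistant cells they were COL9A2 (-0.77 to 0.19), COL23A1 (-0.26 to 0.22), COL5A3 (-0.12 to 0.62), COL4A3 (-0.21 to 0.01), COL13A1 (-0.10 to 0.14), COL5A2 (-0.10 to 0.10) and COL11A2 (-0.20 to 0.14, 0.00071 with the DESeq2 test, 0.0032 with the 5 CPM filter). Between lines they were COL8A2 (-0.0036 to 0.09) and COL11A2 (-0.11 to 0.22) in DMSO, and COL5A1 (-0.10 to 0.01) and COL4A2 (-0.07 to 0.05, and 0.01 with no filter) in GNE-7883. For the difference of responses they were COL23A1 (-0.51 to 0.04), COL6A2 (-0.13 to 0.18, and 0.01 with no filter), COL8A1 (-0.01 to 0.18), COL27A1 (-0.22 to 0.03) and COL15A1 (-0.73 to 0.10). At these depths the 15 untested collagens, with at most 33 counts in all, cannot be compared between groups.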
